A study of Mus musculus with 12 samples.

Results

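The RNA helicases of the DDX and DHX families were followed in mouse bone marrow-derived macrophages that had been exposed to IFNG or to IL4. Members were the features whose gene symbol is Ddx or Dhx followed by a number and at most 1 letter, either alone or as one part of a name that joins overlapping genes. The interferon-inducible RNA sensors Ddx58 and Dhx58 and the Y-linked Ddx3y were left out by that rule. This gave 51 members, 36 DDX and 15 DHX, of 19549 features in all. Of the members, 7 were joined features (Adgre5_Ddx39, Bccip_Dhx32, Cfap73_Ddx54, Ddx17_Kdelr3, Ddx28_Dus2, Ddx49_Homer3 and Dhx57_Morn2), whose counts cannot be divided between the genes in the name.

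The macrophages were grown from the marrow of naive female FVB mice, an inbred strain, and were treated for 4 h with IFNG at 200 units/mL or with IL4 at 40 ng/mL. For each treatment, polysome-associated mRNA and total mRNA were sequenced as SmartSeq2 libraries, with 3 replicates of each, which gives 12 libraries in 4 groups: IFNG polysome, IL4 polysome, IFNG total and IL4 total. Total mRNA came from about 10% of the cells, and polysome-associated mRNA from the fractions of a 5 to 50% sucrose gradient that held messages with more than 3 ribosomes. None of the 4 groups is of untreated cells, so each polarization was set against the other, and the labels do not say whether replicates were separate mice, pools or cultures.

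DDX and DHX proteins use ATP to open RNA duplexes or to strip proteins from RNA. DDX members mostly pry short duplexes apart locally, while DHX members move along a strand, and most members have a fixed post in the life of an RNA: splicing, export through the nuclear pore, ribosome assembly, translation or decay. A few are part of innate immunity, among them Ddx60, an interferon-induced helicase with antiviral roles.

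Ddx60 was the member that differed most between the polarizations, and the bases before its RefSeq start are shown because they carry the interferon-stimulated response element, the DNA motif bound by an interferon-activated complex of transcription factors. The motif was searched as GAAA, 2 bases of any kind and GAAA again, on both strands, and is in capitals. It occurs at 2 places in the Ddx60 window, 53 and 19 bases before the start in the RefSeq promoter table, which lies a few bases inside the span of the gene given further on. Ddx49 is the other member with this motif, at 227 bases before the start shown here, and is printed for comparison. Its joined feature, Ddx49_Homer3, was on average lower with IFNG in both fractions and passed the test in neither, as given further on. Both windows are 250 bases of RefSeq sequence of the build GRCm38.p6, chr8:61927837-61928086 on the + strand for Ddx60 and chr8:70302472-70302721 on the - strand for Ddx49.
Ddx60: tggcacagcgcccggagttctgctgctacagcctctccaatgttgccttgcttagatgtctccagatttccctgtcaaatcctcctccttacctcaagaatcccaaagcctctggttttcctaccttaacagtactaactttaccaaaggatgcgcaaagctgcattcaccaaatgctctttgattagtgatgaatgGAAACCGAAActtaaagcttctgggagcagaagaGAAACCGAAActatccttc
Ddx49: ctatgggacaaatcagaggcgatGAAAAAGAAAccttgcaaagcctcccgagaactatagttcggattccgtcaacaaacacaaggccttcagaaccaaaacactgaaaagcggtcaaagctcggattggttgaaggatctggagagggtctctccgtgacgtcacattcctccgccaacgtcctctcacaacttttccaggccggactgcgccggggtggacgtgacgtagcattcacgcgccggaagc
In the RefSeq promoter windows, which reach from 250 bases before to 50 bases after each start, the motif was present in 3 of 57 promoters of the 46 members that matched (5.26%), against 573 of all 32851 promoters (1.74%). These were 1 promoter of Ddx60 and 2 of Ddx49, whose starts lie close together and share 1 motif site, so that site is counted at both. The STAT6 motif (TTC, 4 bases of any kind, GAA), which reads the same on both strands, was in 2 member promoters (3.51%, Ddx21 and Dhx32), against 6.95% of all promoters. These matches describe letters in a window and say nothing of whether a factor was bound.

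The libraries held 3189688 to 8789480 counts in the IFNG polysome group, 2563955 to 5546605 in the IL4 polysome group, 10443200 to 22014162 in the IFNG total group and 12348819 to 16603339 in the IL4 total group. Levels are CPM, a count scaled to the TMM-adjusted size of its library, and 3 counts stand for 0.136 to 1.17 CPM depending on the library. One gene, Lars2, took 1.78 to 29.3% of the counts of a library in the IFNG polysome group, 5.15 to 18.1% in the IL4 polysome group, 0.341 to 2.0% in the IFNG total group and 0.903 to 1.47% in the IL4 total group. Macrophage markers were present, with all 10 of the list tested and sums of 8239 to 25131 CPM, and 1 of them was higher with IFNG in total mRNA and 3 in polysome-associated mRNA. Of 3 tested neutrophil markers, 1 was higher with IFNG in total mRNA, where the list of 8 summed to 10.5 to 32.0 CPM with IFNG and 1.33 to 4.97 CPM with IL4. On polysomes that list summed to 3.99 to 8.13 CPM with IFNG and 1.23 to 11.3 CPM with IL4. Of 2 tested T and NK cell markers, 1 was higher with IFNG in polysome-associated mRNA, where the list of 8 summed to 6.26 to 10.7 CPM with IFNG and 0 to 5.67 CPM with IL4. In total mRNA that list summed to 5.96 to 10.7 CPM with IFNG and 1.45 to 2.39 CPM with IL4, and 4 of its genes, Ncr1 among them, were at 0 in every library. Of 3 tested dendritic cell markers, 2 were higher with IFNG in each fraction. The 8 markers of that list summed to 18.6 to 45.4 CPM in the IFNG polysome group, 0.817 to 2.27 CPM in the IL4 polysome group, 18.1 to 32.5 CPM in the IFNG total group and 9.06 to 19.4 CPM in the IL4 total group, with Flt3 at 0 in every library. Of 2 tested megakaryocyte markers, 1 was lower with IFNG in polysome-associated mRNA. That list of 6 summed to 35.9 to 117 CPM in the IFNG polysome group, 157 to 329 CPM in the IL4 polysome group, 336 to 767 CPM in the IFNG total group and 528 to 1106 CPM in the IL4 total group. No B cell or stromal marker was called by edgeR, and no erythroid or mast cell and basophil marker was high enough to test. The part of these markers in the results was not tested.

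Between IFNG and IL4, Ddx60 was the member with the largest difference in both fractions, and few other members passed the test. In total mRNA 1 of 48 tested members was higher with IFNG, against 7.08% of all 10421 tested features, and 1 was lower, against 3.93% (2 of 48 either way, against 11.0%). In polysome-associated mRNA 1 was higher, against 7.54% of all features, and 3 were lower, against 6.58% (4 either way, against 14.1%). Calls are adjusted p-values under 0.05 from edgeR's quasi-likelihood test with Benjamini-Hochberg adjustment over all tested features. The median log2 fold change (IFNG over IL4) of the tested members was 0.05 in total mRNA, against 0.04 for all features, and -0.19 in polysome-associated mRNA, against -0.06. Without IFNG polysome replicate 3 or without IL4 polysome replicate 3, 1 of the 3 lower calls in polysome-associated mRNA was left. No DHX member was called in either fraction by edgeR, and no DHX member had an unadjusted p under 0.05. In bulk RNA, fewer cells of a type and less RNA per cell cannot be told apart, and this holds for each difference given here.

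**Figure D1:**
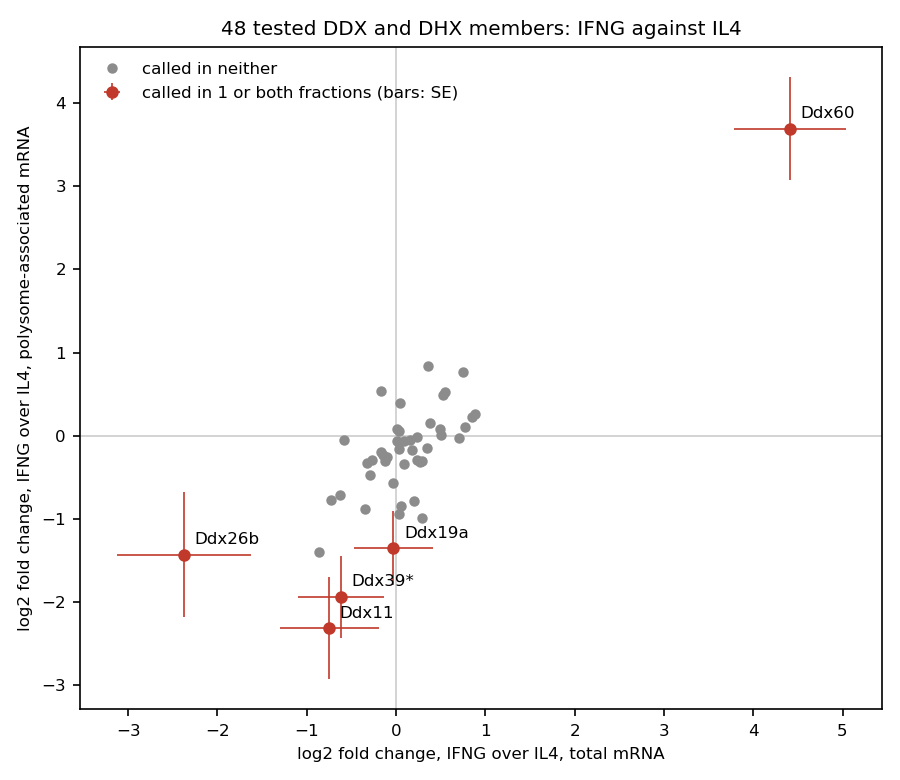
Each point is 1 of the 48 tested members, with its log2 fold change of IFNG over IL4 in total mRNA on the x axis and in polysome-associated mRNA on the y axis. Ddx60 lies far to the upper right at 4.41 and 3.70, while Ddx26b, Ddx11, Adgre5_Ddx39 and Ddx19a lie below 0 on the y axis, at -1.43, -2.32, -1.94 (Ddx39* in the plot) and -1.35.

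Among the antiviral and multifunctional members, Ddx60 had 16.2, 43.7 and 13.7 CPM in the IFNG polysome libraries, against 2.45, 1.06 and 1.89 CPM in the IL4 polysome libraries. In total mRNA it had 5.45, 15.1 and 12 CPM with IFNG, against 0.363, 0.490 and 0.633 CPM with IL4. Every IFNG library lay above every IL4 library of its fraction, and within IFNG replicate 2 was the highest in each fraction. Ddx60 (chromosome 8, 61928073 to 62037704) was 21.2-fold higher with IFNG in total mRNA (log2 fold change 4.41, SE 0.63, edgeR adjusted p = 3.14e-05) and 13-fold higher in polysome-associated mRNA (3.70, SE 0.62, adjusted p = 0.000238). The IL4 levels rest on 26 counts over the 3 polysome libraries and 23 over the 3 total libraries, so the size of the fold is loosely set at this depth. Without IFNG polysome replicate 2 the polysome value was 2.99 (adjusted p = 0.00347).

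The other members of that group did not pass the test between polarizations. Dhx9, RNA helicase A, which acts in transcription, splicing and the handling of double-stranded RNA, had log2 fold changes of -0.10 in total mRNA (adjusted p = 0.943) and -0.26 in polysome-associated mRNA (adjusted p = 0.744). Ddx1, a subunit of the tRNA ligase complex, had 36.8, 40.8 and 25.1 CPM in the IFNG polysome libraries, against 48.1, 64.1 and 78.7 CPM in the IL4 polysome libraries. These groups did not overlap, but the difference of -0.89 (SE 0.41) had an edgeR adjusted p of 0.163.

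Of 3 tested nuclear export members, 2 were called lower with IFNG in polysome-associated mRNA, against 6.58% of all features: the joined feature Adgre5_Ddx39 and Ddx19a. The third, Ddx19b, had -0.99 (edgeR adjusted p = 0.116). Without IFNG polysome replicate 3 and IL4 polysome replicate 3 together, neither call was left (adjusted p = 0.0849 for Adgre5_Ddx39 and 0.411 for Ddx19a). In total mRNA none of the 3 was called, with log2 fold changes of -0.62 to 0.29. The joined feature Adgre5_Ddx39 holds Ddx39 (RefSeq Ddx39a, chromosome 8, 83715177 to 83726904), which loads export factors on spliced mRNA, and the overlapping Adgre5, a leukocyte adhesion receptor. It had 71.6, 25.9 and 21.8 CPM in the IFNG polysome libraries, against 205, 126 and 129.7 CPM in the IL4 polysome libraries. All 3 IFNG libraries were below all 3 IL4 libraries, and IFNG replicate 1 was the nearest to them. The feature was 3.84-fold lower with IFNG (log2 fold change -1.94, SE 0.49, edgeR adjusted p = 0.0102). Leaving out IFNG polysome replicate 2 or 3 ended the call (adjusted p = 0.0642 and 0.0566), and the log2 fold change was -2.69 (adjusted p = 0.000595) without IFNG polysome replicate 1.

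Ddx19a and Ddx19b are neighbouring near-copies on chromosome 8 (110974991 to 110997823 and 111003186 to 111031751). Both encode relatives of yeast Dbp5, which strips export receptors from mRNA at the cytoplasmic face of the nuclear pore. Reads may have been divided between them in counting, and Ddx19b also overlaps Aars, so their separate values are uncertain. Ddx19a had 34.8, 79.9 and 56.1 CPM in the IFNG polysome libraries, against 79.8, 149 and 208 CPM in the IL4 polysome libraries. The groups touched, since IFNG replicate 2 and IL4 replicate 1 were level. The log2 fold change was -1.35 (SE 0.45, edgeR adjusted p = 0.0458), and leaving out any 1 of 10 libraries ended the call, with adjusted p-values of 0.0522 to 0.222 (IFNG and IL4 total replicates 1, 2 and 3, IFNG polysome replicates 1 and 3, and IL4 polysome replicates 2 and 3). In all 15 of 25 alternatives ended it, among them limma on the authors' log2 values (0.0977). Ddx19b had 19.3, 28.2 and 37.3 CPM in the IFNG polysome libraries, against 41.7, 58.8 and 67.3 CPM in the IL4 polysome libraries, with no overlap.

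Ddx11, a DNA helicase with a role in sister chromatid cohesion despite its DDX name, was also lower with IFNG in polysome-associated mRNA. It had 2.20, 1.05 and 1.48 CPM in the IFNG polysome libraries, against 5.99, 6.73 and 12.1 CPM in the IL4 polysome libraries. The groups stood clear of each other, with IL4 replicate 3 the highest. The gene (chromosome 17, 66123513 to 66152174) was 4.99-fold lower (log2 fold change -2.32, SE 0.61, edgeR adjusted p = 0.0126), on 34 counts with IFNG and 95 with IL4. Leaving out IFNG polysome replicate 2 (adjusted p = 0.0656) or IL4 polysome replicate 3 (0.0732) ended the call. In total mRNA it had 2.16, 2.09 and 2.25 CPM with IFNG, against 3.12, 3.13 and 4.68 CPM with IL4. That difference of -0.75 (SE 0.56) did not pass (edgeR adjusted p = 0.528).

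Ddx26b is RefSeq Ints6l, a relative of an Integrator complex subunit, and lies on chromosome X (56454825 to 56507843). It is a member by its symbol only. In total mRNA it had 0.444, 0.582 and 0.345 CPM with IFNG, against 2.54, 0.797 and 3.86 CPM with IL4. The IFNG libraries were all lower, although IL4 replicate 2 came close to them. The log2 fold change was -2.37 (SE 0.75, edgeR adjusted p = 0.0437), resting on 16 counts with IFNG and 109 with IL4. In all 12 of 24 alternatives ended the call. With the replicate number as a block the adjusted p was 0.053, and with libraries thinned to the smallest total 0.17. It was 0.0502 to 0.236 when any 1 of 8 libraries was left out (IFNG total replicates 1, 2 and 3, IL4 total replicates 1 and 3, IFNG polysome replicate 2, and IL4 polysome replicates 1 and 2). In polysome-associated mRNA it had 1.23, 1.47 and 1.85 CPM with IFNG, against 3.68, 4.25 and 4.16 CPM with IL4, again without overlap (log2 fold change -1.43, edgeR adjusted p = 0.228).

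**Figure D2:**
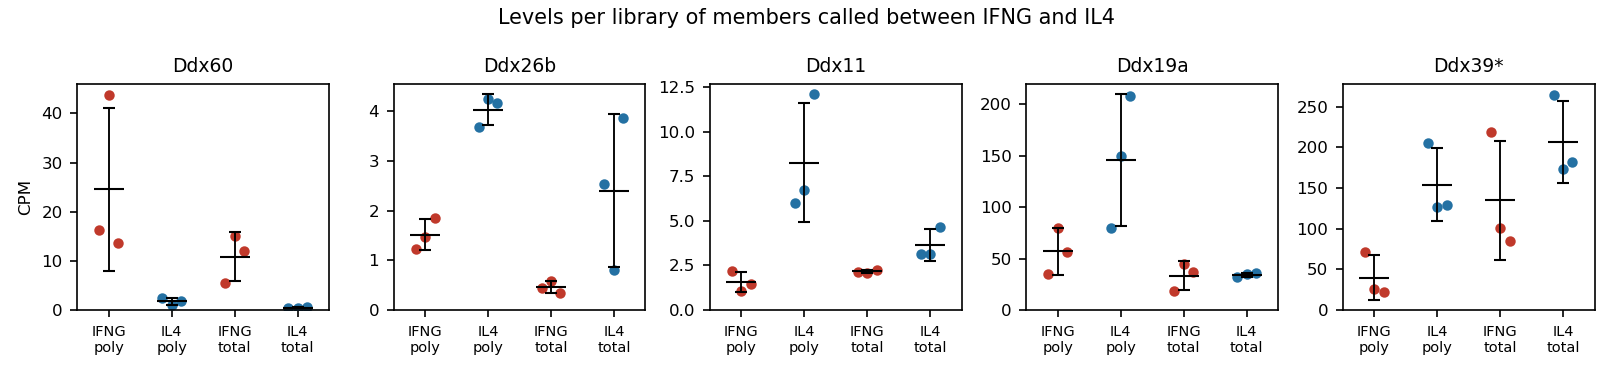
Levels in CPM, on linear axes from 0, of the 5 members called between IFNG and IL4 (Ddx39* stands for the joined feature Adgre5_Ddx39), with 1 point per library and the mean ± SD of 3 libraries per group. Ddx60 is higher with IFNG in both fractions, whereas Ddx11, Ddx19a and Adgre5_Ddx39 sit lower with IFNG in polysome-associated mRNA and Ddx26b in total mRNA.

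The splicing, ribosome assembly, translation and decay, and mitochondrial helicases had no call by edgeR between IFNG and IL4 in either fraction. For the 13 splicing members, log2 fold changes ran over -0.86 to 0.85 in total mRNA and -1.40 to 0.22 in polysome-associated mRNA. For the 16 ribosome assembly members they ran over -0.72 to 0.88 and -0.85 to 0.54. The joined feature Ddx49_Homer3, which holds the other member with the interferon-stimulated response element, averaged 58.0 CPM in the IFNG total libraries, against 95.8 CPM with IL4. In the polysome libraries it averaged 35.7 CPM with IFNG, against 60.8 CPM with IL4. Ddx24, a large-subunit assembly factor, had 183, 333 and 224 CPM in the IFNG total libraries, against 123, 142 and 137 CPM in the IL4 total libraries. All IFNG libraries were above all IL4 libraries, yet the difference of 0.88 (SE 0.46) had an edgeR adjusted p of 0.288. For the 6 translation and decay members the ranges were -0.27 to 0.75 in total mRNA and -0.29 to 0.84 in polysome-associated mRNA. The upper end of the polysome range was Ddx6, which links translational repression to decapping, with 51.2, 39.7 and 48 CPM in the IFNG polysome libraries, against 39.0, 24.8 and 13.2 CPM in the IL4 polysome libraries (adjusted p = 0.226). Those groups did not overlap, though by less than 1 CPM. Ddx3x, which helps ribosomes through structured leaders, had 44.8, 52.5 and 77.3 CPM in the IFNG total libraries, against 67.7, 53.1 and 89.2 CPM in the IL4 total libraries, with overlapping groups.

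Polysome-associated and total mRNA were then compared within each polarization. A CPM is a share of a library, so a higher level here means that a message takes a larger share of the polysome-associated library than of the total library. Helicase messages leaned toward the polysome-associated libraries. With IFNG, 36 of 48 members had a log2 fold change (polysome-associated over total) above 0, or 75%, against 49.9% of all features. With IL4 it was 37 of 48, or 77.1%, against 51.6%. The member median was 0.48 with IFNG and 0.78 with IL4, against 0.00 with IFNG and 0.06 with IL4 for all features. With IFNG the member median was 0.25 without IFNG polysome replicate 2, and 0.80 without scaling beyond the library total, where that of all features was 0.31. Fewer members passed the test. With IFNG 5 were higher, which is 10.4% of members against 8.93% of all features, and 4 were lower, 8.33% against 17.0% (9 either way, against 25.9% of features). With IL4 12 were higher, 25% against 13.2%, and 2 were lower, 4.17% against 15.9% (14 either way, against 29.1% of features). With Lars2 counts left out, 4 members were higher and 5 lower with IFNG, and 11 were higher and 4 lower with IL4.

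The calls of the 2 polarizations overlapped. All 5 members higher with IFNG (Dhx8, Dhx9, Dhx15, Dhx33 and Ddx23) were among the 12 higher with IL4, and 2 of the 4 lower with IFNG (Ddx39b and Ddx41) were the 2 lower with IL4. How far the calls of all features overlapped between the polarizations was not counted, so this overlap is not shown to be particular to the members. Of the 15 DHX members, 4 were higher with IFNG (26.7%) and 5 with IL4 (33.3%), and none was lower. Of the 33 tested DDX members, 1 was higher (3.03%) and 4 were lower (12.1%) with IFNG, and 7 were higher (21.2%) and 2 lower (6.06%) with IL4. Of all features, 8.93% were higher and 17.0% lower with IFNG, and 13.2% were higher and 15.9% lower with IL4. These are few calls per family, and the families were not tested against each other. The IFNG calls leaned on single libraries. Without IFNG total replicate 1, or without IFNG polysome replicate 2, only 1 higher call and no lower call was left, Dhx8 in the first case and Dhx33 in the second. Without IFNG polysome replicate 3 there were 4 higher and 2 lower. The calls over all features moved with the same libraries: with IFNG, 931 features were higher and 1769 lower, against 297 and 935 without IFNG total replicate 1 and 348 and 967 without IFNG polysome replicate 2. With IL4, leaving out each library gave 9 to 13 higher and 0 to 4 lower calls. Without scaling beyond the library total, 7 members were higher with IFNG and 12 with IL4, and no member was lower by edgeR.

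**Figure D3:**
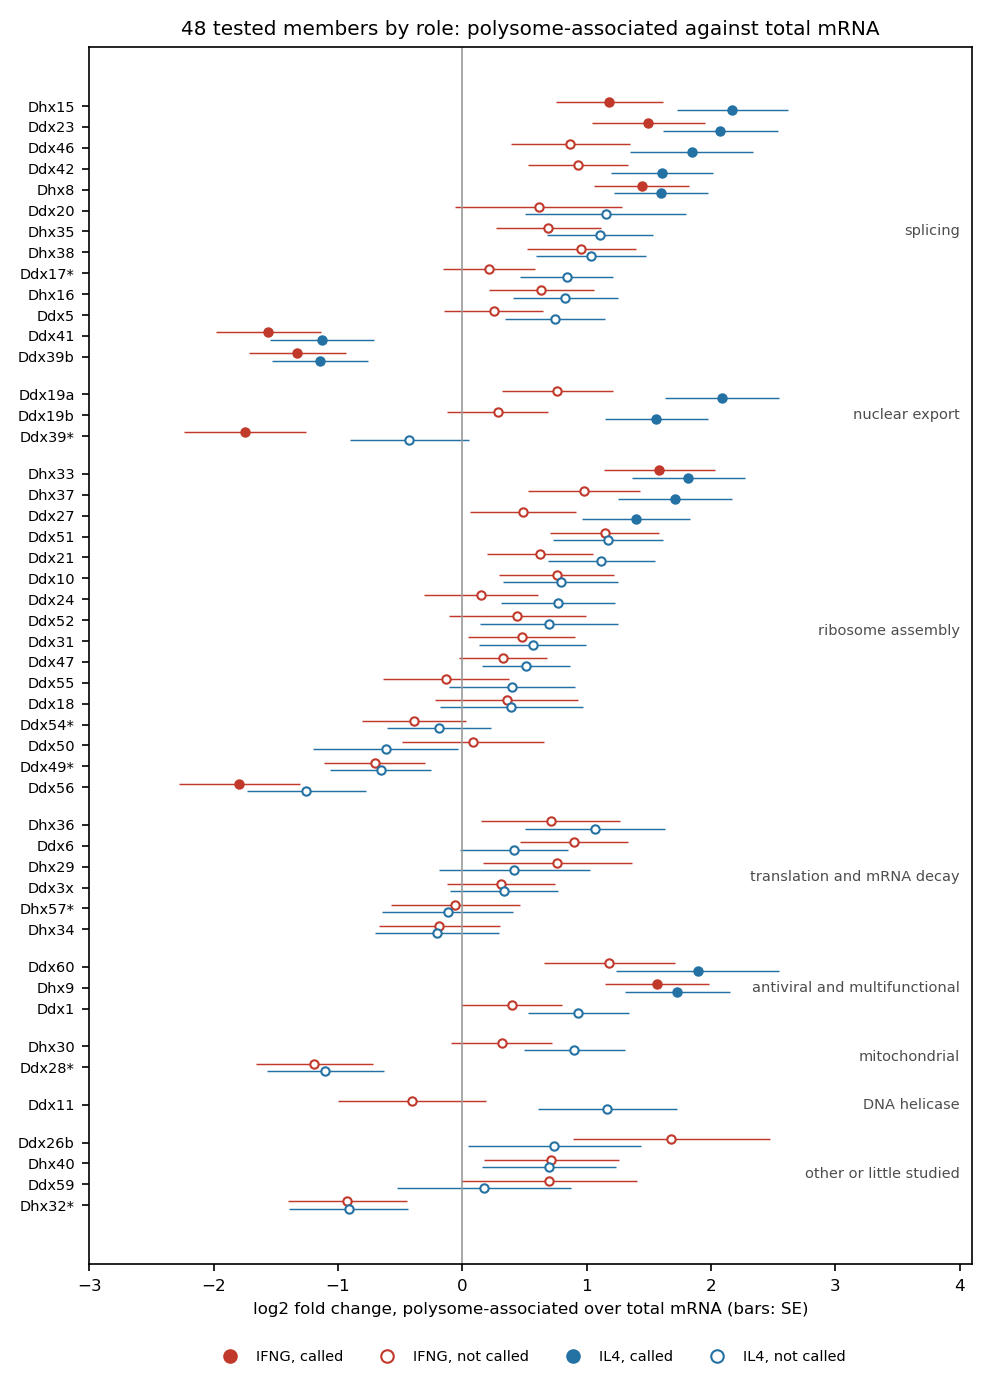
Log2 fold change of polysome-associated over total mRNA for each tested member by role on the x axis, with its SE as a bar, with IFNG and with IL4 in separate colours and filled symbols for members that passed the test, and an asterisk for joined features. Most symbols lie right of 0, and the filled symbols left of 0 are Ddx39b, Ddx41, Ddx56 and Adgre5_Ddx39.

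Splicing helicases gave the most calls and went both ways. Of 13 members, 3 were higher and 2 lower with IFNG, where 8.93% of all features were higher and 17.0% lower. With IL4, 5 were higher and 2 lower, where 13.2% of all features were higher and 15.9% lower. Those higher included Dhx8, Dhx15 and Ddx23, the mouse relatives of yeast Prp22, Prp43 and Prp28, which drive release of spliced mRNA, disassembly of the spliceosome and exchange of the first small nuclear RNA. Dhx8 (chromosome 11) had 81.1, 109 and 64.3 CPM in the IFNG polysome libraries, against 23.5, 39.0 and 31.2 CPM in the IFNG total libraries. In the IL4 groups it had 93.2, 84.6 and 88.5 CPM in the polysome libraries, against 25.2, 29.4 and 33.4 CPM in the total libraries. Every polysome library was above every total library with both cytokines. The difference was 2.72-fold with IFNG (log2 1.44, SE 0.38, edgeR adjusted p = 0.0089) and 3.03-fold with IL4 (1.60, SE 0.38, adjusted p = 0.00552). The IFNG call ended without IFNG polysome replicate 2 (adjusted p = 0.0561).

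Dhx15 (chromosome 5) had 111, 197 and 173 CPM in the IFNG polysome libraries, against 45.0, 92.5 and 74.4 CPM in the IFNG total libraries. Under IL4 the gene had 187, 217 and 428 CPM in the polysome libraries, against 59.7, 49.7 and 74.8 CPM in the total libraries. The fractions did not overlap with either cytokine, and IL4 polysome replicate 3 was far above the rest. The difference was 2.27-fold with IFNG (log2 1.18, SE 0.43, edgeR adjusted p = 0.0471) and 4.51-fold with IL4 (2.17, SE 0.44, adjusted p = 0.00227). Significance with IFNG was lost when any 1 of 8 libraries was left out, with adjusted p-values of 0.0513 to 0.167 (IFNG total replicate 1, IFNG polysome replicates 2 and 3, IL4 total replicates 1, 2 and 3, and IL4 polysome replicates 1 and 2). In all 14 of 25 alternatives ended it, among them a fit of only the libraries compared (0.11).

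Ddx23 (chromosome 15) had 12.7, 29.8 and 19.6 CPM in the IFNG polysome libraries, against 6.53, 9.07 and 6.39 CPM in the IFNG total libraries. With IL4 it had 24.5, 35.4 and 17.0 CPM in the polysome libraries, against 5.80, 5.03 and 7.40 CPM in the total libraries. The fractions stood apart with both cytokines. The log2 difference was 1.49 with IFNG (SE 0.45, edgeR adjusted p = 0.0194) and 2.08 with IL4 (SE 0.46, adjusted p = 0.00369). The IFNG call ended without IFNG total replicate 1 (adjusted p = 0.0662) or IFNG polysome replicate 2 (0.133), and with only the libraries compared in the fit (0.052).

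Ddx46 and Ddx42, which act with the branch-site complex early in splicing, were called with IL4 and not with IFNG, and the test of that contrast, polysome association, did not pass for either (adjusted p = 1). Ddx46 had 94.6, 149 and 60.9 CPM in the IL4 polysome libraries, against 23.3, 31.1 and 30.3 CPM in the IL4 total libraries (log2 1.84, SE 0.49, edgeR adjusted p = 0.00966, and 0.0543 without IL4 polysome replicate 2). Ddx42 had 66.9, 82.5 and 60.9 CPM in the IL4 polysome libraries, against 22.3, 24.8 and 21.9 CPM in the IL4 total libraries (log2 1.60, SE 0.41, adjusted p = 0.00759). Neither gene's IL4 fractions overlapped. With IFNG the values were 0.87 for Ddx46 (adjusted p = 0.188) and 0.93 for Ddx42 (adjusted p = 0.0899), with overlapping fractions. Ddx42 overlaps Ftsj3 on chromosome 11, so part of its counts may belong to that gene.

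Ddx39b and Ddx41 went the other way. Ddx39b is the mouse relative of yeast Sub2, which loads splicing and export factors on nascent mRNA, and Ddx41 is a spliceosome component also described as a sensor of DNA in myeloid cells. Ddx39b (chromosome 17) had 75.7, 56.3 and 51.3 CPM in the IFNG polysome libraries, against 214, 143 and 104 CPM in the IFNG total libraries. In the IL4 groups it had 68.8, 79.3 and 79.0 CPM in the polysome libraries, against 167, 182 and 153 CPM in the total libraries. The polysome libraries were the lower ones throughout. The log2 difference was -1.33 with IFNG (SE 0.39, edgeR adjusted p = 0.016) and -1.14 with IL4 (SE 0.39, adjusted p = 0.0312). Significance with IFNG was lost without IFNG total replicate 1 (adjusted p = 0.118), IFNG polysome replicate 2 (0.0714) or IFNG polysome replicate 3 (0.0695), and with only the libraries compared in the fit (0.0514). The IL4 call ended without IL4 total replicate 1 or 2 or any IL4 polysome replicate (0.0731 to 0.103).

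Ddx41 (chromosome 13) had 37.3, 27.1 and 22.9 CPM in the IFNG polysome libraries, against 137, 74.5 and 46.9 CPM in the IFNG total libraries. Under IL4 the gene had 36.1, 36.5 and 38.6 CPM in the polysome libraries, against 93.7, 84.9 and 63.9 CPM in the total libraries. The fractions did not overlap, and the IFNG total libraries were widely spread. The log2 difference was -1.56 with IFNG (SE 0.42, edgeR adjusted p = 0.0102) and -1.13 with IL4 (SE 0.42, adjusted p = 0.0466). The IFNG call ended without IFNG total replicate 1 (adjusted p = 0.109) or IFNG polysome replicate 2 (0.0505). The IL4 call ended without IL4 total replicate 1 or 2, any IL4 polysome replicate, or IFNG polysome replicate 2 (0.0543 to 0.135), and with limma on the authors' log2 values (0.0777). The other splicing members (Ddx5, Ddx17, Ddx20, Dhx16, Dhx35 and Dhx38) were not called, with log2 differences of 0.21 to 0.96 with IFNG and 0.74 to 1.15 with IL4.

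**Figure D4:**
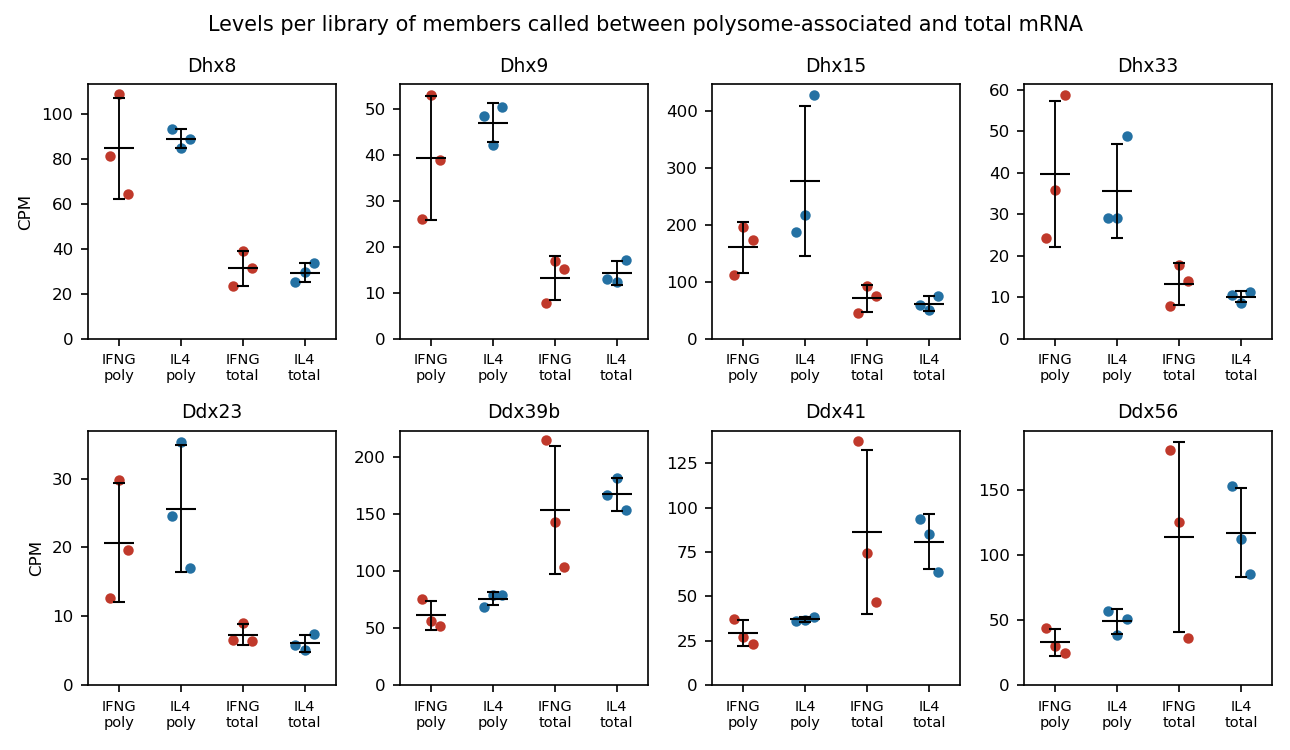
Levels in CPM, on linear axes from 0, of 8 helicases called between polysome-associated and total mRNA, with 1 point per library and the mean ± SD of 3 libraries per group. Dhx8, Dhx9, Dhx15, Dhx33 and Ddx23 are higher in the polysome libraries with both cytokines, while Ddx39b, Ddx41 and Ddx56 are lower.

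The export helicases divided in the same comparison. Adgre5_Ddx39 had 71.6, 25.9 and 21.8 CPM in the IFNG polysome libraries, against 219, 100.3 and 85.3 CPM in the IFNG total libraries. The fractions did not overlap, although IFNG polysome replicate 1 was close to the lowest total library. It was 3.36-fold lower (log2 -1.75, SE 0.49, edgeR adjusted p = 0.0127). The call ended without IFNG total replicate 1 (adjusted p = 0.113), IFNG polysome replicate 2 (0.0758) or IFNG polysome replicate 3 (0.0612), and the value was -2.50 without IFNG polysome replicate 1. With IL4 it had 205, 126 and 129.7 CPM in the polysome libraries, against 265, 174 and 182 CPM in the total libraries, with overlap (log2 -0.43, edgeR adjusted p = 0.514).

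Ddx19a had 79.8, 149 and 208 CPM in the IL4 polysome libraries, against 32.0, 34.7 and 35.6 CPM in the IL4 total libraries. The total libraries were tightly grouped and all lower. The difference was 4.26-fold (log2 2.09, SE 0.46, edgeR adjusted p = 0.00339). Ddx19b had 41.7, 58.8 and 67.3 CPM in the IL4 polysome libraries, against 18.9, 16.6 and 21.3 CPM in the IL4 total libraries. Its fractions did not overlap either (log2 1.56, SE 0.41, edgeR adjusted p = 0.00907, and 0.0515 without IL4 total replicate 2). With IFNG, Ddx19a had 34.8, 79.9 and 56.1 CPM in the polysome libraries, against 18.4, 45.1 and 37.0 CPM in the total libraries, and the fractions overlapped (log2 0.76, edgeR adjusted p = 0.21). Ddx19b had 0.28 with IFNG (adjusted p = 0.632). Ddx25, the testis paralogue, had no count in any library.

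Of 16 ribosome assembly helicases, 1 was higher and 1 lower with IFNG, where 8.93% of all features were higher and 17.0% lower. With IL4, 3 were higher and none lower by edgeR, where 13.2% of all features were higher and 15.9% lower, so the shares higher are near those of all features. Dhx33, a nucleolar DHX helicase tied to ribosomal RNA synthesis, had 24.1, 35.9 and 58.7 CPM in the IFNG polysome libraries, against 7.86, 17.8 and 13.8 CPM in the IFNG total libraries. In the IL4 groups it had 29.0, 29.0 and 48.8 CPM in the polysome libraries, against 10.5, 8.52 and 11.1 CPM in the total libraries. The fractions did not overlap with either cytokine. The difference was 3.00-fold with IFNG (log2 1.58, SE 0.45, edgeR adjusted p = 0.0132) and 3.53-fold with IL4 (1.82, SE 0.45, adjusted p = 0.00671). Significance with IFNG was lost without IFNG total replicate 1 (adjusted p = 0.0655) or IFNG polysome replicate 3 (0.0694).

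Dhx37, the relative of yeast Dhr1 in small-subunit assembly, had 28.1, 31.5 and 57.9 CPM in the IL4 polysome libraries, against 13.7, 13.7 and 8.41 CPM in the IL4 total libraries. The fractions stood apart, with polysome replicate 3 the highest (log2 1.71, SE 0.46, edgeR adjusted p = 0.00989, and 0.058 without IL4 polysome replicate 3). Ddx27, a large-subunit assembly factor, had 50.1, 90.7 and 65.8 CPM in the IL4 polysome libraries, against 24.0, 29.9 and 24.4 CPM in the IL4 total libraries. Its fractions did not overlap (log2 1.40, SE 0.43, edgeR adjusted p = 0.0206). The call ended without any 1 of the IL4 total replicates or IL4 polysome replicate 2 (0.0564 to 0.0933).

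Ddx56, a nucleolar helicase of large-subunit assembly, had 44.0, 29.8 and 24.4 CPM in the IFNG polysome libraries, against 181, 125 and 36.1 CPM in the IFNG total libraries. The groups overlapped through IFNG total replicate 3. The log2 difference was -1.79 (SE 0.49, edgeR adjusted p = 0.0103), and the call ended without IFNG total replicate 1 (adjusted p = 0.094) or IFNG polysome replicate 2 (0.0513), and with limma on the authors' log2 values (0.0615). Under IL4 the gene had 57.0, 38.6 and 51.1 CPM in the polysome libraries, against 153, 112 and 85.3 CPM in the total libraries, which did not overlap (-1.26, SE 0.48, edgeR adjusted p = 0.0515). Among the ribosome assembly members that were not called, Ddx24 had 272, 438 and 109 CPM in the IFNG polysome libraries, against 183, 333 and 224 CPM in the IFNG total libraries. Ddx18, another large-subunit factor, had 195, 149 and 16.6 CPM in the IFNG polysome libraries, against 73.9, 105 and 104 CPM in the IFNG total libraries. For both, polysome replicate 3 was the lowest of the 6 IFNG libraries and the other polysome replicates were spread widely, with log2 differences of 0.15 (adjusted p = 0.829) and 0.36 (adjusted p = 0.675).

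Helicases of translation and mRNA decay had no call by edgeR in either polarization. The log2 differences of the 6 members ran over -0.18 to 0.90 with IFNG and -0.20 to 1.07 with IL4. Ddx6 had 51.2, 39.7 and 48 CPM in the IFNG polysome libraries, against 14.5, 26.7 and 33.2 CPM in the IFNG total libraries. These groups did not overlap (log2 0.90, SE 0.43, edgeR adjusted p = 0.127). Ddx3x had 111, 58.4 and 46.5 CPM in the IFNG polysome libraries, against 44.8, 52.5 and 77.3 CPM in the IFNG total libraries, with wide overlap. Its difference was 0.31 with IFNG (adjusted p = 0.624) and 0.34 with IL4 (adjusted p = 0.577).

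The antiviral and multifunctional members were all above 0 in both polarizations. Dhx9 (chromosome 1) had 26.0, 53.0 and 38.8 CPM in the IFNG polysome libraries, against 7.80, 16.7 and 15.2 CPM in the IFNG total libraries. With IL4 it had 48.4, 42.1 and 50.3 CPM in the polysome libraries, against 13.0, 12.3 and 17.1 CPM in the total libraries. The fractions stood apart with both cytokines. The difference was 2.96-fold with IFNG (log2 1.57, SE 0.42, edgeR adjusted p = 0.01) and 3.32-fold with IL4 (1.73, SE 0.42, adjusted p = 0.00628). The IFNG call ended without IFNG total replicate 1 (adjusted p = 0.0524) or IFNG polysome replicate 2 (0.0672). Ddx60 was higher in the IL4 polysome than in the IL4 total libraries by 1.89 (SE 0.66, edgeR adjusted p = 0.0348), with no overlap but with 26 and 23 counts in all. That call ended without IL4 polysome replicate 1 (adjusted p = 0.184), IL4 polysome replicate 3 (0.0675), IL4 total replicate 1 (0.106) or IL4 total replicate 2 (0.0929), and also without Lars2 counts (0.053), without scaling (0.0558), with only the libraries compared in the fit (0.0839) or with thinned libraries (0.0785). With IFNG its difference was 1.18 (adjusted p = 0.1), and Ddx1 had 0.40 with IFNG and 0.93 with IL4, neither of which passed.

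The remaining roles had no call between the fractions. Dhx30, which is needed for mitochondrial ribosome assembly, had 101, 115 and 82.7 CPM in the IFNG polysome libraries, against 94.0, 102 and 44.0 CPM in the IFNG total libraries (log2 0.32, edgeR adjusted p = 0.59). With IL4 it had 134, 98.4 and 135 CPM in the polysome libraries, against 87.8, 57.7 and 51.4 CPM in the total libraries. Its IL4 fractions did not overlap, but the log2 difference of 0.90 did not pass the test. The joined feature Ddx28_Dus2, whose Ddx28 also acts on mitochondrial ribosomes, had 23.7, 10.5 and 8.50 CPM in the IFNG polysome libraries, against 50.4, 26.9 and 21.9 CPM in the IFNG total libraries. The log2 differences of Ddx28_Dus2 were -1.19 with IFNG (edgeR adjusted p = 0.0651) and -1.10 with IL4 (adjusted p = 0.0798). Ddx11 had -0.41 with IFNG and 1.17 with IL4 (adjusted p = 0.642 and 0.117). The little-studied Dhx32, in a joined feature with Bccip, had 17.8, 14.5 and 17.7 CPM in the IFNG polysome libraries, against 26.2, 12.8 and 56.0 CPM in the IFNG total libraries. Dhx40 had 6.08, 6.52 and 8.50 CPM in the IFNG polysome libraries, against 2.35, 4.54 and 5.87 CPM in the IFNG total libraries. Dhx32 fractions overlapped and those of Dhx40 just did not, and neither passed the test. The germline helicases Ddx4 and Ddx43 were too low to test, with 1 and 6 counts over the IFNG polysome libraries, 3 and 1 over the IL4 polysome libraries, 7 and 11 over the IFNG total libraries, and 24 and 15 over the IL4 total libraries.

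The design also asks whether the step from total to polysome-associated mRNA differed between IFNG and IL4, which the interaction term of the model tests and which is called polysome association here. No member passed by edgeR, DESeq2 or limma, and no feature of all 10421 passed by edgeR (0% of features). At an unadjusted p under 0.05 there were 2 members and 176 features. The value was below 0 for 40 of 48 members, with a median of -0.25, against -0.10 for all features, of which 42.7% were above 0. The 3 tested export members were close together, at -1.33 for Ddx19a (SE 0.63), -1.28 for Ddx19b (SE 0.57) and -1.32 for Adgre5_Ddx39 (SE 0.68). Ddx19a and Ddx19b are near-copies that may have divided reads, and Adgre5_Ddx39 also counts Adgre5. These are therefore not shown to be 3 independent values of export helicases. Ddx11 had the lowest value at -1.57 (SE 0.82). All 13 splicing members were below 0, at -0.99 to -0.07, and 15 of 16 ribosome assembly members were too. The calls above that were made with IL4 and not with IFNG are not shown to differ from the IFNG values.

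Genes that work beside the DDX and DHX members were followed as 3 lists. Of 20 tested RNA helicases of other families, 3 were higher with IFNG in total mRNA, against 7.08% of all features, and 2 in polysome-associated mRNA, against 7.54%, and none was lower by edgeR. Without joined features 1 was higher in each fraction. Helz2, an interferon-induced nuclear helicase-like coactivator, averaged 442 ± 236 CPM in the IFNG polysome libraries and 55.5 ± 2.95 CPM in the IL4 polysome libraries (SD, n = 3 each). In total mRNA it averaged 196 ± 129 CPM with IFNG and 23.1 ± 7.78 CPM with IL4. It was higher with IFNG by 2.99 (SE 0.52, edgeR adjusted p = 0.000345) and 3.09 (SE 0.52, adjusted p = 0.000238) on the log2 scale in these fractions, with 2.39 in total mRNA without IFNG total replicate 2. The joined feature Zfos1_Znfx1, whose Znfx1 is a helicase that senses viral RNA, was higher by 2.55 (SE 0.50, adjusted p = 0.00117) and 2.58 (SE 0.50, adjusted p = 0.00103). Without replicate 2 of the IFNG group concerned it was 1.96 in polysome-associated and 1.85 in total mRNA. The joined feature Plpp1_Skiv2l2, whose Skiv2l2 feeds RNA to the nuclear exosome, was higher in total mRNA by 1.33 (SE 0.37, adjusted p = 0.0208), a call that ended without IFNG total replicate 1, IL4 total replicate 1 or IL4 total replicate 2 (0.0809 to 0.112).

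Between fractions, 8.93% of all features were higher and 17.0% lower with IFNG, and 13.2% were higher and 15.9% lower with IL4. Of the 20 other RNA helicases, 5 were higher in polysome-associated mRNA with IFNG and 8 with IL4, and none was lower by edgeR. The IFNG count was 2 without IFNG total replicate 1, 8 without IFNG total replicate 2, with DESeq2 or with the replicate number as a block, and 9 with thinned libraries. Of 44 helicase cofactors, 6 were higher and 4 lower with IFNG, and 7 were higher and 4 lower with IL4. With IFNG 1 was higher and 2 lower without IFNG total replicate 1 or IFNG polysome replicate 2, 3 were higher without IFNG polysome replicate 3, and 7 were lower without IFNG polysome replicate 1. With IL4 3 were higher without IL4 total replicate 1 and 4 without IL4 total replicate 2, and 2 were lower without either of these or IL4 polysome replicate 1 or 2. Between polarizations, 11.0% of all features were called either way in total mRNA and 14.1% in polysome-associated mRNA. Beside these shares, 1 of 44 cofactors was called in total mRNA and 0 in polysome-associated mRNA by edgeR. The 1 called was the joined feature Ccdc167_Cmtr1, higher with IFNG in total mRNA (log2 1.34, SE 0.43, edgeR adjusted p = 0.0478). Its call ended when any 1 of 9 libraries was left out (0.052 to 0.367), which were all but IFNG total replicate 3 and IFNG polysome replicates 1 and 2. Of 64 ribosome assembly factors without a helicase domain, none was called between polarizations by edgeR, against 11.0% and 14.1% of all features in these fractions. Between fractions, 7 of them were higher and 9 lower in polysome-associated mRNA with IFNG, and 15 were higher and 7 lower with IL4. With IFNG 1 was higher without IFNG total replicate 1 or IFNG polysome replicate 2. That count was 4 without IFNG total replicate 2 or IFNG polysome replicate 3. Those lower with IFNG numbered 4 without IFNG total replicate 1 and 5 without IFNG polysome replicate 2 or 3. With IL4 8 were higher without IL4 total replicate 1, 6 without IL4 total replicate 2 and 9 without IL4 polysome replicate 3, and 4 were lower without any 1 of IL4 total replicates 1 and 2 and IL4 polysome replicates 2 and 3. The median log2 difference between fractions was 0.96 with IFNG and 1.31 with IL4 for the other helicases. It was 0.19 with IFNG and 0.41 with IL4 for the cofactors, and 0.30 with IFNG and 0.58 with IL4 for the assembly factors.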

How the data were processed

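Total and polysome-associated mRNA were sequenced in 3 libraries per group, grouped by the labels. Each deposited file gives whole-number read counts per gene symbol, not normalized, and log2 values that the authors made for 11006 of the 19549 features, per the file headers. The submitters' processing notes name the build mm10 and the tools HISAT2, HISAT and limma, without versions. What counted the reads, whether strand was used and which annotation served were not given in the sources used here, so reads of overlapping and antisense genes cannot be told apart. A total of 830 features join several symbols.

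Tests on the counts used edgeR 4.0.16 under R 4.3.3. The filter filterByExpr, given the 4 groups, kept 10421 features and 48 members, since Ddx4, Ddx25 and Ddx43 fell below it. Libraries were scaled with TMM, and 1 robust quasi-likelihood model of 4 groups without covariates was fitted to all 12 libraries, with Benjamini-Hochberg adjustment over all features for each of the 5 comparisons and a threshold of 0.05. SDs are over 3 libraries. P-values measure the spread between these libraries, which may be technical. DESeq2 1.42.0 and limma 3.58.1 (on the authors' log2 values) were alternatives, beside other scalings, filters, left-out libraries, thinned counts and the replicate number as a block.

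Deviations from group means were correlated between IFNG and IL4 libraries over 6984 features of at least 10 CPM. Same-numbered libraries gave 0.517, 0.153 and 0.745 in total mRNA for replicates 1, 2 and 3. In polysome-associated mRNA they gave 0.25, 0.153 and 0.352. Differently numbered libraries gave -0.696 to 0.395 in total mRNA and -0.37 to 0.229 in polysome-associated mRNA. The match by number was weakest for replicate 2. IFNG total replicate 2 had 0.395 with IL4 total replicate 1, and IFNG polysome replicate 1 had 0.229 with IL4 polysome replicate 2. The numbers were taken to pair the polarizations only in an alternative fit, which had the replicate number as a block. The main fold changes, SEs and calls between polarizations come from the fit without that block and do not use the pairing.

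Members, role lists and gene lists were chosen with earlier results of these data known. All members called in at least 1 comparison are named (18), with the 2 of highest mean CPM in each role and up to 3 called genes of each further list. Symbols matched RefSeq for 49 members and a synonym for 2, and positions are those of GRCm38.p6, the assembly that mm10 stands for. Levels of different genes are not compared, since they are not scaled by length.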

Additional observations from a re-analysis of the deposited data

How the results depend on the processing

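Of 29 called member values, none reversed under any alternative run, 9 stayed past the threshold under every alternative that tested the gene, and 20 lost it without at least 1 library. These 9 were Ddx60 between polarizations in both fractions, and Dhx8, Dhx9, Dhx15, Dhx33, Ddx19a, Ddx23 and Ddx42 between fractions with IL4. Leaving out each library in turn gave 1 member higher and 0 to 1 lower with IFNG against IL4 in total mRNA, and 1 higher and 1 to 3 lower in polysome-associated mRNA. Between fractions it gave 1 to 7 higher and 0 to 5 lower with IFNG, and 9 to 13 higher and 0 to 4 lower with IL4. The uncalled value of Ddx19a in total mRNA, -0.03, ran over -0.37 to 0.22, and was above 0 without IFNG total replicate 1 (0.22) or IL4 total replicate 3 (0.00).

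With the replicate block, members lower with IFNG in total mRNA numbered 0 (main 1), and members lower in polysome-associated mRNA with IL4 numbered 4 (main 2). The other blocked member counts were within 1.5 times of the main ones, and other RNA helicases higher with IFNG numbered 8 (main 5). The numbers were not taken to pair the fractions, since not every correlation of same-numbered libraries was over 0.1 and the labels do not say that they share cells, but pairing is not shown to be absent: correlations of deviations were 0.266, 0.43 and -0.0732 with IFNG and 0.0163, 0.396 and 0.0461 with IL4 for replicates 1, 2 and 3. With no scaling beyond the library total, 0 members were lower in polysome-associated mRNA with IFNG (main 4) and 0 with IL4 (main 2). That setting moved the median of all features by over 0.1, to -0.30 (main 0.04) and -0.17 (main -0.06) between polarizations in total and polysome-associated mRNA, to 0.31 (main 0.00) between fractions with IFNG and to 0.11 (main -0.10) for polysome association. The member median minus that of all features was 0.28 to 0.66 between fractions with IFNG and 0.69 to 0.90 with IL4 over the alternatives.

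With limma on the authors' log2 values, 1 member was lower in polysome-associated mRNA with IL4 (main 2). With no filter, or with libraries thinned to the smallest total, 0 members were lower with IFNG in total mRNA (main 1). With a mean of at least 10 CPM, which leaves Ddx60, Ddx26b and Ddx11 untested, 0 were higher and 0 lower in total mRNA, 0 higher and 1 lower (main 3) in polysome-associated mRNA, 9 (main 5) higher between fractions with IFNG and 4 (main 2) lower with IL4. Without Lars2 counts, 4 were lower with IL4 (main 2). With only the libraries compared in the fit, 0 were lower in total mRNA (main 1), 3 were higher between fractions with IFNG (main 5) and 5 lower with IL4 (main 2). An alternative chosen after seeing the data left out IFNG polysome replicate 3 and IL4 polysome replicate 3: members lower numbered 0 in polysome-associated mRNA (main 3), 0 between fractions with IFNG (main 4) and 0 with IL4 (main 2). The cause of these changes was not tested.

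Over all features, no scaling gave 477 higher with IFNG in total mRNA (main 738), 514 higher in polysome-associated mRNA (main 786), and 775 (main 1769) and 1007 (main 1662) lower between fractions with IFNG and with IL4. Leaving out both replicates 3 gave 463 higher and 247 lower (main 786 and 686) between polarizations in polysome-associated mRNA and 805 higher (main 1375) between fractions with IL4. With only the libraries compared, 483 were higher between fractions with IFNG (main 931). Between fractions, features higher numbered 297 without IFNG total replicate 1 and 348 without IFNG polysome replicate 2 with IFNG, and 515 without IL4 total replicate 2, 689 without IL4 total replicate 1 and 841 without IL4 polysome replicate 3 with IL4 (main 1375). In polysome-associated mRNA, features lower with IFNG numbered 351 without IL4 polysome replicate 3 and 355 without IFNG polysome replicate 2 (main 686), and in total mRNA 237 without IFNG total replicate 2 (main 410). For polysome association, which already uses all libraries, no fit of a subset was run. There DESeq2 called 1 feature lower, and the fit without a filter 1 higher and 4 lower. The share of calls that were higher was 48.5% without scaling in total mRNA (main 64.3%), 57.7% without scaling and 45.8% with upper quartile scaling between fractions with IFNG (main 34.5%), and 32% without Lars2 between fractions with IL4 (main 45.3%).

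Among the called members, the fewest counts stand behind Ddx60 with IL4, Ddx26b and Ddx11, with at most 168 counts over the libraries of a group. Joined features, near-copies and the unstated strand setting limit Adgre5_Ddx39, Ddx19a, Ddx19b and Ddx42.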
